A study of Mus musculus with 5 samples.

Results

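The genes described here encode the proteins of the cytosolic ribosome and some relatives of these proteins. They were chosen by symbol alone. The rule took Rpl or Rps with a number, followed by at most 1 letter (a, l, x or y) and 1 digit. It added Rplp0, Rplp1, Rplp2 and Rpsa and left out pseudogenes and the Rps6 kinases. This gave 83 of the 32285 genes in the count matrices. By symbol, 32 were assigned to the small subunit and 51 to the large subunit. Their RNA was counted by single-nucleus RNA sequencing of mouse brain nuclei that were sorted as positive for the DNA dye DAPI and negative for the neuronal protein NeuN and the oligodendrocyte-lineage protein Olig2. Of the 5 libraries, which hold the nuclei of 1 mouse each, 2 came from animals heterozygous for the R241E allele of Cgas (R241E) and 3 from animals with wild-type Cgas (WT). All of these mice carried the Tmem119-creERT2 driver, which acts mainly in microglia and brain macrophages, so nuclei of other classes are not expected to have recombined the allele. The methods describe tamoxifen given to young adult mice to switch the allele on and an R241E line built in C57BL/6J zygotes, and the labels name hippocampus where the methods of nucleus extraction name brain tissue without a region. The study's text names another control genotype for this experiment, and the sample titles were followed; a treatment of aged mice with the STING inhibitor H151 or its vehicle DMSO in the shared label text is tied to none of these libraries.

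cGAS is a cytosolic DNA sensor that signals to interferon genes, and the R241E substitution weakens its binding to nucleosomes. A count of 3′ tags cannot see a substitution, so these counts hold no direct check of the genotype labels. The study reported a raised interferon signature in R241E microglia of these same libraries. The levels of its 28 listed interferon genes are therefore a description and no independent check. Their summed level in microglia was 3377 and 2976 CPM in R241E replicates 1 and 2, against 439 to 502 in the WT libraries. A UMI (unique molecular identifier) marks 1 captured RNA molecule, and a level in CPM is a gene's UMIs scaled to the same total for every class and library. After the study's limits, 9505 of 9748 deposited nuclei were kept, with library totals of 4183709 to 10130667 UMIs. Median UMIs per kept nucleus ran from 2126 to 3364. Only 13 cell barcodes were found in more than 1 library. Microglia numbered 5355 nuclei, named from clusters built without the ribosomal protein genes. Most R241E microglia fell in clusters 4 and 11 and most WT microglia in clusters 2 and 3. R241E replicate 1 also stood apart, with 133 of 187 nuclei of a cluster led by Slit2 and Nnat and 51 of 53 nuclei of a cluster led by Rorb and Rtl4, which met no rule for a name.

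A ribosome joins a small subunit, which reads the mRNA, to a large subunit, which forms the peptide bond. Its proteins are made in matched amounts, and many of their mRNAs begin with a pyrimidine tract, the 5′ terminal oligopyrimidine (5′ TOP) motif, through which mTOR and Larp1 adjust their translation. These mRNAs are short, spliced and mostly cytoplasmic. In a nucleus preparation, reads from these genes can come from RNA in the nucleus, spliced or not yet spliced. They can also come from cytoplasmic RNA that adheres to the nucleus or floats in the droplets. Ribosomal protein genes also have many processed pseudogenes. Reads that match several annotated genes equally well are not counted, so the level of each gene may be understated to a different degree.

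The letters around the transcription start are shown for 9 of the genes named below, because the 5′ TOP is the sequence feature these genes are known to share and the symbol rule did not use it. The RefSeq promoter table (GRCm38.p6) held a start for 63 of the 83 genes. Each line gives 15 bases before and 15 bases after the annotated start on the gene's own strand, and capitals mark the longest run of at least 6 C or T letters that begins with C.
Rpl27a, chr7:109519180-109519209, plus strand: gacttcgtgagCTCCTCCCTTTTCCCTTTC
Rplp2, chr7:141447636-141447665, plus strand: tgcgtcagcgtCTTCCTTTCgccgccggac
Rps27, chr3:90213634-90213663, minus strand: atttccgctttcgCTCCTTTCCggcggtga
Rpl39, chrX:37085208-37085237, minus strand: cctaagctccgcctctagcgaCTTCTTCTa
Rpl14, chr9:120571502-120571531, plus strand: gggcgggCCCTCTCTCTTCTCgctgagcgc
Rpl22l1, chr3:28805493-28805522, plus strand: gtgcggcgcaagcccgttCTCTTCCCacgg
Rpl24, chr16:55966260-55966289, plus strand: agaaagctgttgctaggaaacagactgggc
Rpl11, chr4:136053379-136053408, minus strand: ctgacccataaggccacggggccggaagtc
Rpl7l1, chr17:46782642-46782671, minus strand: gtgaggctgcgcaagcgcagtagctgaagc
Such a run lay in the 30-base window of 36 of these 63 genes (57.1%), against 6883 of all 27025 genes in the table (25.5%). Genes with a run (Rpl27a, Rplp2) and genes without one (Rpl24, Rpl11) were both among those called higher in microglia below, and both kinds were also among those not called (Rpl14, Rpl7l1). RefSeq starts may lie some bases from the start used in these cells, so a window without a run says nothing of the motif at the true start.

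The first comparison set the share of UMIs that came from ribosomal protein genes in each class of nuclei beside the genotype. In microglia this share was 0.673% (95% exact binomial interval 0.664 to 0.682) in R241E replicate 1 and 0.825% (0.811 to 0.840) in R241E replicate 2. In the WT libraries it was 0.353% (0.346 to 0.361), 0.390% (0.384 to 0.396) and 0.551% (0.543 to 0.559) in replicates 1, 2 and 3. Both R241E libraries were above all WT libraries, and the group means were 0.749% ± 0.108 (SD, n = 2) and 0.432% ± 0.105 (SD, n = 3), a ratio of 1.74. The intervals cover counting error only and are far narrower than the spread between mice of 1 genotype. No p-value was computed for the summed share, since the genes were chosen with results of these data known.

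The share differed more between classes than between genotypes. Lymphocytes had the highest, 7.50% and 12.4% in R241E and 10.6%, 9.35% and 9.87% in WT, from 3 to 120 nuclei a library. A cluster with monocyte and neutrophil markers had 3.07% to 4.66%. Endothelial nuclei, only 7 to 17 a library, ranged from 0.376% to 2.47%. All remaining classes lay below 1%, with oligodendrocytes lowest at 0.2003% in WT replicate 1.

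**Figure D1:**
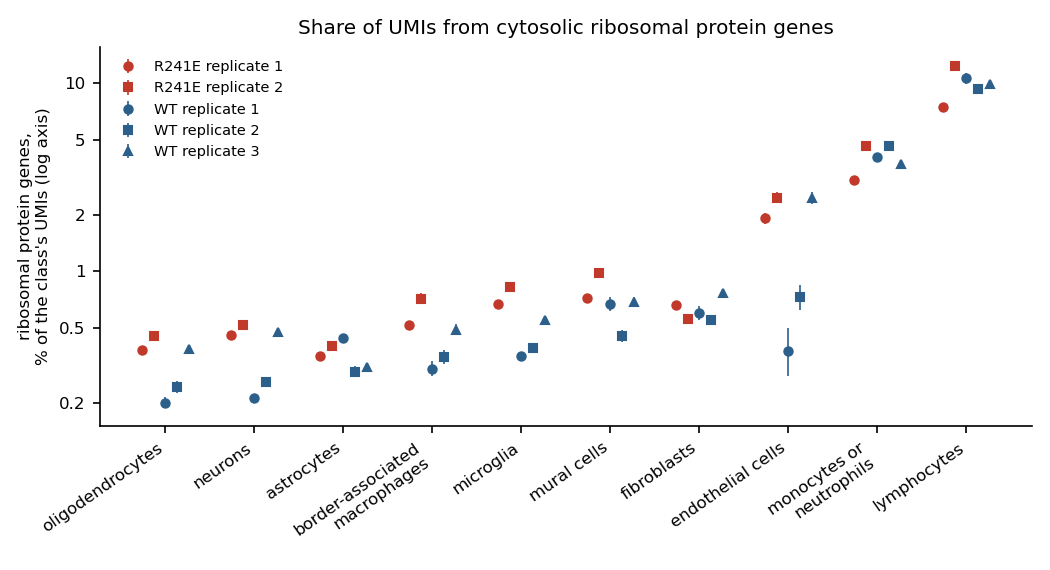
Share of all UMIs of a class that came from the 83 ribosomal protein genes (vertical log axis, %), for 10 classes of nuclei ordered by their WT mean. Each point is 1 library (red R241E, blue WT, shape the replicate) and bars are 95% exact binomial intervals. In microglia the R241E points, 0.673% and 0.825%, sit above the WT points, which reach 0.551%, while lymphocytes lie at 7.50% to 12.4% with overlapping genotypes.

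Classes other than microglia were sorted and sequenced together with them. In border-associated macrophages, which the driver also reaches, the share was 0.517% and 0.717% in R241E and 0.304%, 0.350% and 0.489% in WT, again without overlap. Mural cells also did not overlap, at 0.720% and 0.980% against 0.668%, 0.453% and 0.685%. Neurons had 0.461% and 0.516% in R241E and 0.211%, 0.258% and 0.474% in WT, and WT replicate 3 lay between the R241E values. Oligodendrocytes had 0.383% and 0.454% against 0.2003%, 0.243% and 0.389%, where WT replicate 3 again lay between them. Microglia, border-associated macrophages, neurons and oligodendrocytes thus shared one order within each genotype: WT replicate 1 lowest, then 2, then 3, and R241E replicate 1 below replicate 2. Median UMIs per kept nucleus ran in the reverse order. They were 2805, 2689 and 2126 in WT replicates 1 to 3, and 3364 and 2447 in R241E replicates 1 and 2. Whether depth set the order of the shares was not tested. Astrocytes had 0.357% and 0.399% against 0.440%, 0.293% and 0.311%. Fibroblasts had 0.658% and 0.557% against 0.600%, 0.550% and 0.765%, so the genotypes overlapped in these 2 classes. In astrocytes the overlap rested on WT replicate 1. With 1000 UMIs drawn per nucleus, the top 10% of its 63 astrocytes supplied 50.2% of these UMIs, against 24.0% to 28.3% in the other libraries. Its median astrocyte had 2 such UMIs, against 3 and 4 in R241E and 3 in WT replicates 2 and 3. Whether a few nuclei carried its share was not tested.

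Each gene was then tested in microglia, as UMIs summed per library, with edgeR's quasi-likelihood test and Benjamini-Hochberg adjustment over all 12689 genes that passed the filter on low counts. Of the 83 ribosomal protein genes, 80 passed that filter. Of these 80, 57 rose in R241E at an adjusted p under 0.05, where 5.68% of all genes tested did, and 0 fell, where 3.08% of all genes did. The R241E libraries were above every WT library for 72 of the 80, against 19.8% of all genes. Their median log2 fold change was 0.76, while the median over all genes tested was 0.00, and 79 of 80 had a value above 0. Rpl10l and Rpl3l had no UMI in microglia, and Rpl39l, with 12 UMIs in all, did not pass the filter.

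**Figure D2:**
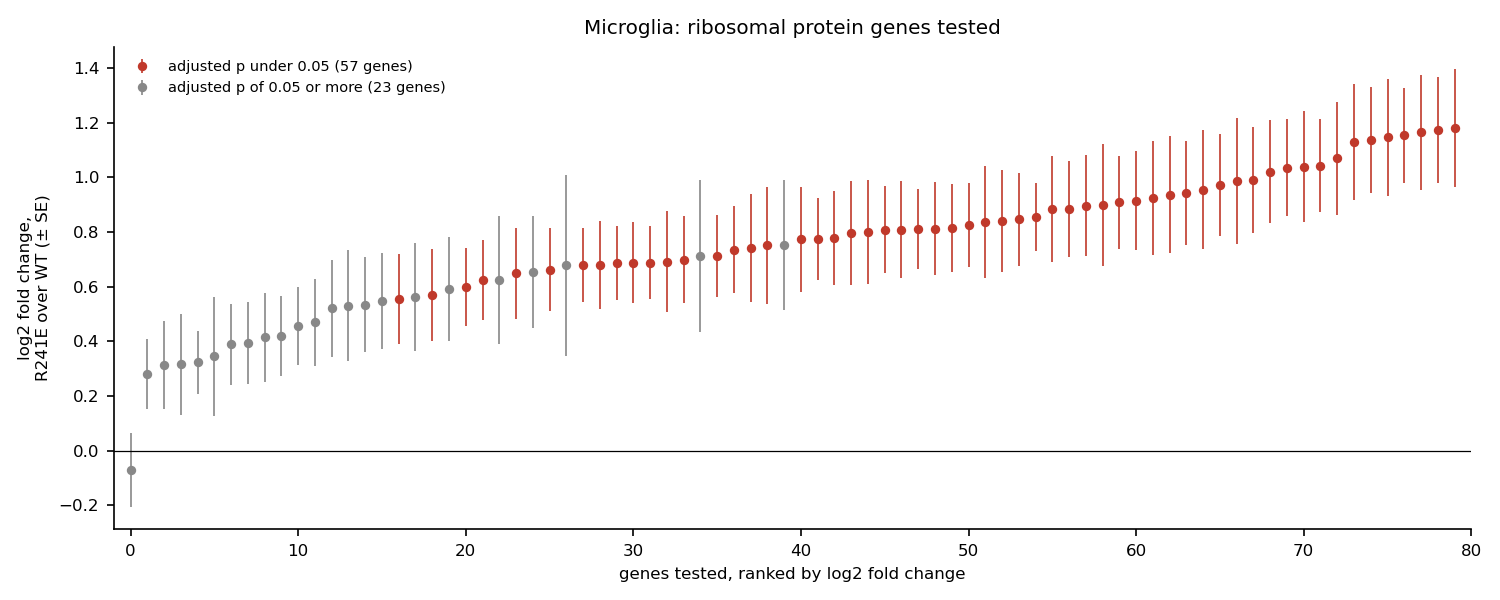
Log2 fold change (R241E over WT, vertical axis) with its standard error for each of the 80 ribosomal protein genes tested in microglia, ranked by the change along the horizontal axis. Red marks the 57 genes with an adjusted p under 0.05. Values run from -0.07 for Rpl7l1 to 1.18 for Rps29.

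The count changed with the libraries and terms of the fit. Without R241E replicate 2, 20 of 80 were called higher, beside 524 of all 13237 genes tested in that fit. Mitochondrial transcripts, which do not belong in a nucleus, made up 0.0809% and 0.0821% of microglial UMIs in R241E and 0.0553%, 0.0544% and 0.0667% in WT, so they too did not overlap. With the log2 of that share as a term in the fit, 0 of 80 were called in edgeR and 0 passed an unadjusted p of 0.05, and the median log2 fold change was -0.14. Of all 12689 genes 87 were called higher in this fit. The term and the genotype both separate the same libraries, so in this fit they cannot be told apart. In nuclei without any mitochondrial UMI, which are fewer and shallower, 14 of 79 were called higher, beside 316 of all 8955 genes tested there, 77 of 79 were above 0 and the median was 0.59. The summed share in these nuclei was 0.692% ± 0.102 (SD, n = 2) in R241E and 0.434% ± 0.101 (SD, n = 3) in WT, still without overlap.

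Genes of both subunits rose. In the small subunit 24 of 32 were called, with a median log2 fold change of 0.73, and in the large subunit 33 of 48, with a median of 0.79. Small-subunit genes supplied 39.4% and 39.0% of the ribosomal protein UMIs in R241E and 38.5%, 38.3% and 39.8% in WT. The balance of the subunits therefore moved by less than the WT libraries differed among themselves.

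In the small subunit the largest difference was that of Rps29, a zinc-binding protein of the subunit's head. Its level was 232 and 339 CPM in R241E replicates 1 and 2 and 82.0, 108 and 176 in WT replicates 1 to 3, a log2 fold change of 1.18 ± 0.22 (SE, adjusted p = 0.00193). Both R241E values were above the WT values, and WT replicate 3 was the highest of its group. Rpsa, which sits where the mRNA leaves the subunit and is also known as a laminin receptor, had 81.3 and 90.4 against 40.2, 40.1 and 64.2 and rose by 0.81 ± 0.18 (adjusted p = 0.00733). Rps27a, which is made as a fusion with ubiquitin, had 116 and 127 against 59.7, 65.3 and 95.4 and rose by 0.70 ± 0.16 (adjusted p = 0.00933). Among the proteins at the decoding site and mRNA entry (Rps2, Rps3, Rps23) 2 of 3 were called.

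Of the large-subunit genes, Rpl21 had the smallest adjusted p (0.000293), with 145 and 166 CPM in R241E and 71.9, 83.0 and 97.5 in WT, a log2 fold change of 0.86 ± 0.13. Rpl24, part of a bridge to the small subunit, had 121 and 119 against 43.5, 44.1 and 72.9 (1.15 ± 0.17, adjusted p = 0.000383). Rpl23, which also binds the p53 regulator Mdm2, had 88.8 and 114 against 35.7, 47.3 and 59.1 (1.04 ± 0.17, adjusted p = 0.000761). In each of these genes both R241E values lay above all WT values. Rpl7 had 58.9 and 82.8 against 21.9, 29.98 and 37.5 (1.17 ± 0.19, adjusted p = 0.000857). Rpl36a, near the site where spent tRNA leaves, had 41.0 and 44.5 against 17.9, 14.1 and 24.9 (1.16 ± 0.21, adjusted p = 0.00176). Rpl19, at the rim of the peptide exit tunnel, had 98.9 and 138 against 45.1, 49.8 and 72.6 (1.04 ± 0.18, adjusted p = 0.00121). Of the 7 tunnel-rim genes, 5 were called, with a median of 0.90.

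The 5S particle, a precursor in which Rpl5 and Rpl11 bind 5S rRNA and which can inhibit Mdm2, was split by the test. Rpl11 had 102 and 132 CPM against 34.5, 50.5 and 68.7 and rose by 1.14 ± 0.19 (adjusted p = 0.00112). Rpl5 had 74.0 and 75.8 against 54.4, 62.5 and 65.4, a log2 fold change of 0.28 ± 0.13 that missed the threshold (adjusted p = 0.237), although its groups did not overlap. The difference between these 2 genes was not itself tested. In the P stalk, which recruits elongation factors, Rplp2 had 66.2 and 73.0 against 34.9, 36.4 and 45.3 (0.81 ± 0.15, adjusted p = 0.00177) and Rplp1 had 124 and 155 against 58.1, 59.7 and 98.4 (0.92 ± 0.18, adjusted p = 0.00356). Both stalk genes rose. Rplp0, the stalk's base, had 30.6 and 58.4 against 15.03, 26.1 and 32.7, where R241E replicate 1 was below WT replicate 3 and the adjusted p was 0.147.

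Genes with many UMIs were not all called. Rpl6, with 2790 UMIs over the 5 libraries the most counted of the group, had 215 and 262 CPM against 147, 150 and 215 and did not pass (0.46 ± 0.14, adjusted p = 0.0613). Rpl41, a very short basic protein of an intersubunit bridge, had 128 and 183 against 105, 104 and 137, and its groups overlapped (adjusted p = 0.134). Rpl27a, whose start carries the longest pyrimidine run printed above, had 166 and 189 against 87.3, 107 and 130 and rose by 0.69 ± 0.13 (adjusted p = 0.00335).

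Paralogs of the standard proteins were compared with their parents, side by side and without a test of the pair. Rpl7l1, a relative of Rpl7, was the 1 gene with a value below 0: it had 49.5 and 53.6 CPM in R241E and 51.6, 53.0 and 54.9 in WT (log2 fold change -0.07 ± 0.14, adjusted p = 0.841). Rpl7 itself rose, as given above. Rpl22l1 had 50.4 and 59.8 against 37.4, 33.9 and 45.6 (0.47 ± 0.16, adjusted p = 0.0898), and Rpl22 had 39.7 and 41.7 against 35.3, 28.4 and 34.2 (0.31 ± 0.16, adjusted p = 0.304), so neither of this pair passed while neither overlapped. Rps27l, a p53 target, had 10.1 and 13.9 against 5.28, 5.77 and 10.2 and did not pass (adjusted p = 0.275), while Rps27 had 93.9 and 104 against 39.8, 50.3 and 76.5 and rose by 0.80 ± 0.19 (adjusted p = 0.0131). Rpl39, which lines the exit tunnel, had 79.7 and 101 against 28.8, 41.7 and 63.6 and rose by 0.96 ± 0.22 (adjusted p = 0.00977). Its relative Rpl39l, known from testis, had 2 and 0 UMIs in R241E and 2, 5 and 3 in WT, too few for a comparison. Rpl3 rose by 0.60 ± 0.14 (adjusted p = 0.0135) and Rpl10 by 0.85 ± 0.17 (adjusted p = 0.00388), while Rpl3l, a muscle paralog, and Rpl10l, a testis paralog, had no UMI in microglia.

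The 5 tested genes with the largest p were Rpl7l1, Rpl4, Rpl14, Rpl22 and Rps27l. Rpl4, which reaches into the exit tunnel, had 29.0 and 35.5 CPM against 18.7, 22.1 and 32.4 (log2 fold change 0.35 ± 0.22, adjusted p = 0.428). Rpl14 had 48.2 and 50.8 against 29.6, 36.9 and 50.1 (0.32 ± 0.19, adjusted p = 0.385). The groups overlapped in 8 of the 80 genes, and in all 8 WT replicate 3 exceeded R241E replicate 1.

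The next question was whether the difference was carried by some nuclei. To compare nuclei at 1 depth, 1000 UMIs were drawn from each, and the 5 to 63 nuclei a library with fewer were left out. The mean number of ribosomal protein UMIs per nucleus was 7.23 and 8.74 in R241E and 3.90, 4.36 and 5.87 in WT, and the medians were 6 and 7 against 4, 4 and 5. At the 90th percentile nuclei had 13 and 16.5 UMIs against 7, 8 and 10, and the groups did not overlap. At the 10th percentile they had 2 and 3 against 1, 1 and 2, so R241E replicate 1 and WT replicate 3 were equal. Nuclei without any ribosomal protein UMI made up 0.906% and 1.01% in R241E and 3.44%, 3.39% and 0.866% in WT, where WT replicate 3 was the lowest of all libraries.

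**Figure D3:**
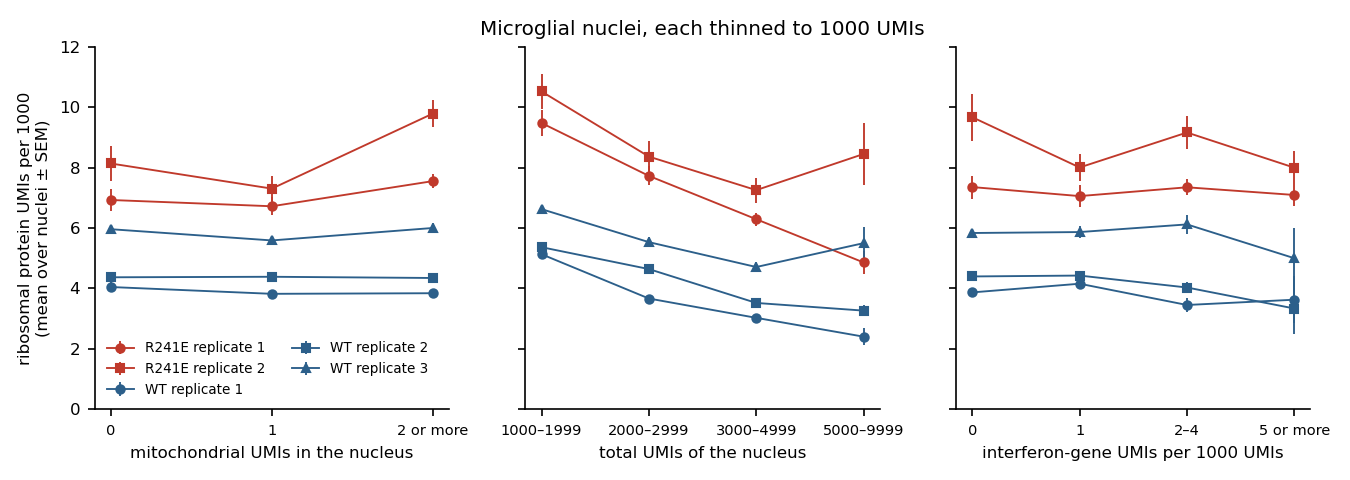
Mean number of ribosomal protein UMIs per 1000 UMIs (vertical axis, ± SEM over nuclei) in microglial nuclei split by mitochondrial UMIs, by total UMIs and by interferon-gene UMIs, 1 line per library (red R241E, blue WT). R241E replicate 1 lies above WT replicate 3 in every bin but that of nuclei with 5000 UMIs or more (4.86 against 5.5), and no line climbs steadily with interferon UMIs.

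The same means were read by the interferon transcripts of each nucleus. In R241E replicate 1 the mean was 7.36 UMIs per 1000 in nuclei with no interferon UMI and 7.10 in nuclei with 5 or more, and in R241E replicate 2 it was 9.67 and 8.00. In the WT libraries nuclei with no interferon UMI had 3.87, 4.396 and 5.84, and the 6 to 8 nuclei a library with 5 or more had 3.63, 3.33 and 5. These are descriptions over nuclei of 1 mouse each, and no test over mice was made of them. Over the bins below 5000 UMIs the mean fell with depth in every library. From nuclei with fewer than 2000 UMIs to those with 5000 or more, it went from 9.48 to 4.86 in R241E replicate 1. Over the same bins it went from 5.13 to 2.40 in WT replicate 1 and from 5.37 to 3.26 in WT replicate 2. In R241E replicate 2 and WT replicate 3 it rose again in nuclei with 5000 or more. There it was 8.45 and 5.5, against 7.26 and 4.71 in the bin before. In the bins below 5000 UMIs both R241E libraries were above all WT libraries. Nuclei with 2 or more mitochondrial UMIs had 7.56 and 9.79 in R241E, against 6.93 and 8.14 in nuclei with none, and in the WT libraries the same values were 3.84, 4.34 and 6.002 against 4.05, 4.37 and 5.96.

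The same values were read inside clusters of microglia, which were built without these genes. In cluster 4 the mean was 7.51 and 9.88 UMIs per 1000 in R241E and 4.36, 5.82 and 7.44 in WT. In cluster 2, which held most WT nuclei and only 19 and 32 thinned R241E nuclei, it was 5.95 and 5.44 against 3.85, 4.001 and 5.24. The R241E libraries were above the WT libraries in both clusters. The lower R241E library exceeded WT replicate 3 by little, at 7.51 against 7.44 in cluster 4 and 5.44 against 5.24 in cluster 2. In cluster 11 the mean was 6.84 and 7.34 in R241E and 4.4, 4.2 and 6.2 in WT. Each WT library held only 5 thinned nuclei of that cluster. In cluster 3 R241E replicate 1 (5.60) was below WT replicate 3 (5.86).

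Other genes of translation and related pathways were read from the same fit, in which 2557 of all 12689 genes passed an unadjusted p of 0.05 in either direction. Among ribosomal proteins that the symbol rule misses, Fau, a fusion of a ubiquitin-like protein with a small-subunit protein, had 227 and 284 CPM against 86.9, 93.6 and 143 and rose by 1.22 ± 0.16 (adjusted p = 0.000102), and Rack1 rose by 0.76 ± 0.22 (adjusted p = 0.0446). Rpl36al did not pass (adjusted p = 0.251). Of 7 elongation factors, 7 were above 0 and only Eef1a1, which brings tRNA to the ribosome, was called, with 202 and 223 against 125, 127 and 178 (0.55 ± 0.13, adjusted p = 0.0146). Of 13 other genes listed for a 5′ TOP, which include Tpt1, Naca, Npm1 and Eif4a2, 0 were called by edgeR, 6 passed an unadjusted p of 0.05, 11 were above 0 and the median was 0.33. Of 7 snoRNA host RNAs with a 5′ TOP, such as Gas5, 0 were called (1 unadjusted) and the median was 0.11.

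Of the genes that build ribosomes none was called by edgeR. Of 25 biogenesis genes (Fbl, Ncl, Nop56 and others) 0 were called (2 unadjusted) and 15 were above 0, with a median log2 fold change of 0.05. Of 9 RNA polymerase I genes 0 were called (0 unadjusted) and 2 were above 0, with a median of -0.25, and of 14 tested growth-control genes (Mtor, Larp1, Myc and others) 0 were called (1 unadjusted), with a median of 0.00. Mitochondrial ribosomal proteins, which serve a separate ribosome, had 0 of 78 called (5 unadjusted) and a median of 0.16. These medians stand beside 0.76 for the cytosolic ribosomal protein genes and 0.00 for all genes tested, and no test between lists was made.

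Lists of other cytoplasmic RNAs, and of markers of other cell types, were read beside these. Of 11 tested mitochondrial transcripts 4 rose and 11 were above 0, with a median of 0.52, among them mt-Cytb (0.80 ± 0.17, adjusted p = 0.00725) and mt-Co1 (0.48 ± 0.11, adjusted p = 0.0140). Of 12 abundant short mRNAs of microglia 8 rose, with a median of 0.72, led by the protease gene Ctss, which had 1369 and 1627 CPM against 552, 671 and 757 (1.17 ± 0.12, adjusted p = 5.34e-06), while the summed level of the list overlapped between genotypes. Of 84 nuclear-encoded oxidative phosphorylation genes 16 rose, with a median of 0.40. Oligodendrocyte markers, 7 of 7 detected in microglia and led by Mbp, summed to 210 and 238 CPM in R241E and 121 to 144 in WT, and 3 of 5 tested rose. Lymphocyte markers, 7 of 7 detected and led by Il7r, summed to 69.0 and 64.0 against 49.8 to 53.0, and R241E libraries held 120 and 35 lymphocytes against 3, 7 and 28. Mural markers, led by Vtn, summed to 30.6 and 34.1 against 17.1 to 23.4. Hormone, transthyretin and haemoglobin RNAs, led by the haemoglobin gene Hbb-bs, summed to 29.0 and 75.1 against 15.4, 37.4 and 304, and overlapped. Neuron markers (135 and 143 against 135 to 155) and astrocyte markers (293 and 275 against 276 to 345) overlapped. The part of RNA from other cells or from cytoplasm in the differences of the ribosomal protein genes was not tested.

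**Figure D4:**
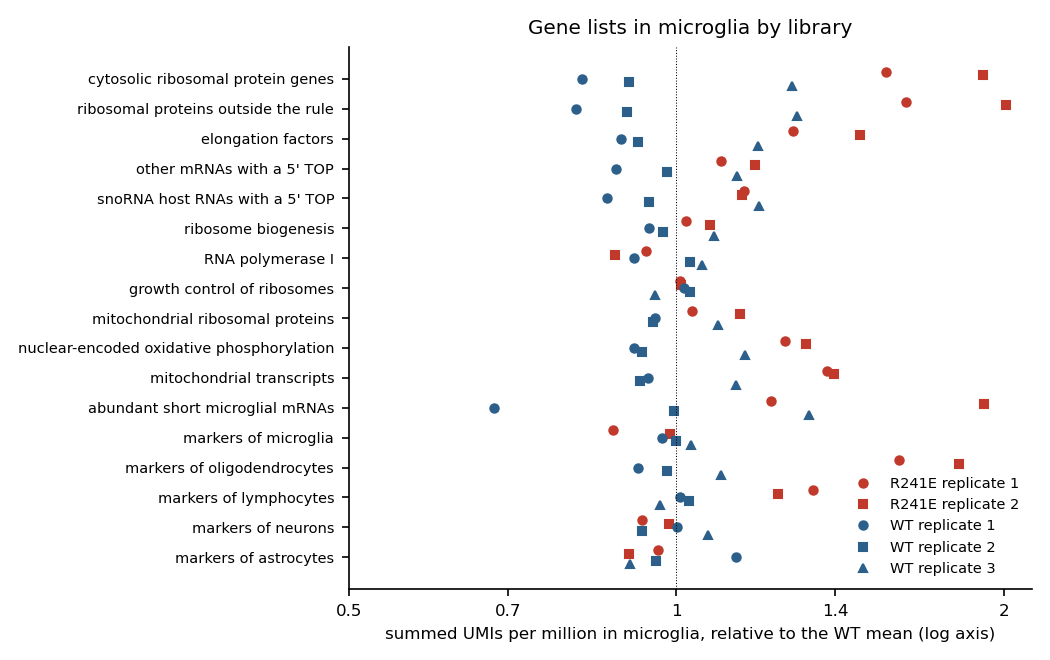
Summed CPM of each gene list in microglia, relative to the mean of the 3 WT libraries (horizontal log axis), 1 point per library (red R241E, blue WT). Cytosolic ribosomal proteins, elongation factors and mitochondrial transcripts are among the lists with both red points to the right of all blue points, and the red and blue points of biogenesis and growth-control genes overlap.

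Gene span is a property that the symbol rule did not use. Ribosomal protein genes tested in microglia span a median of 3179 bases (982 to 11774) in RefSeq, where the other tested genes with a span have a median of 24258. Of the 1252 other genes under 5 kb, 6.55% were called higher and 1.36% lower, with a median log2 fold change of 0.08. In the 1596 other genes of 100 kb or more these shares were 5.20% and 8.08%, with a median of -0.05. Among the ribosomal protein genes the share called higher was 71.2%.

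The same fit was made in those other classes that held 20 or more nuclei of each mouse. No ribosomal protein gene was called by edgeR in any of these 6 classes. In neurons, where the Cgas driver is not expected to act, 77 of 79 were above 0 with a median log2 fold change of 0.67, and 19 passed an unadjusted p of 0.05, beside a median of -0.02 and 876 of 8965 over all genes tested in neurons. The lowest p belonged to Rps10, with 107 and 81.1 CPM against 18.2, 36.7 and 49.3 (1.52 ± 0.37, adjusted p = 0.222). Neuron clusters were filled unevenly. WT replicate 1 held 147 of 191 nuclei of cluster 20, and R241E replicate 2 held 46 of 64 of cluster 10. With 1000 UMIs drawn per neuron, the top 10% of R241E nuclei supplied 56.6% and 49.1% of the ribosomal protein UMIs. For WT replicates 1 to 3 this was 31.3%, 28.1% and 32.5%. Median neurons had 3 and 4 such UMIs (R241E) against 2, 2 and 4 (WT). Whether the mix of neurons or a few nuclei carried the difference was not tested. In border-associated macrophages 45 of 48 were above 0 (median 0.57, 13 unadjusted), in mural cells 65 of 68 (median 0.55, 14 unadjusted) and in oligodendrocytes 65 of 73 (median 0.52, 16 unadjusted). Astrocytes (58 of 79, median 0.15, 2 unadjusted) and fibroblasts (36 of 76, median -0.01, 1 unadjusted) stood lower. Over all genes tested, 307 of 3881 passed an unadjusted p of 0.05 in border-associated macrophages, 174 of 3862 in mural cells, 320 of 6264 in oligodendrocytes, 741 of 7879 in astrocytes and 417 of 5811 in fibroblasts, and the median log2 fold change lay between -0.01 and 0.01 in each. DESeq2's Wald test and limma-voom also called 0 in each of these classes.

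Few genes of any kind were called in these classes. All genes tested were called higher at 0.0112% in neurons, 0.567% in border-associated macrophages, 0.292% in astrocytes, 0.208% in oligodendrocytes, 0% in mural cells and 0% in fibroblasts. In counts simulated with 200 genes changed 2-fold, the fit recovered 71.5% of them in microglia but 0.5% in neurons, 17.5% in astrocytes and 47.5% in border-associated macrophages, so a count of 0 in the smaller classes does not show that these genes were level. Mitochondrial transcripts moved with the genotype here too: their share was 0.0941% and 0.0650% against 0.0444% to 0.0476% in neurons, and 0.0603% and 0.0525% against 0.0283% to 0.0454% in oligodendrocytes. In astrocytes WT replicate 1 had the highest mitochondrial share (0.169%) and also the highest ribosomal protein share.

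**Figure D5:**
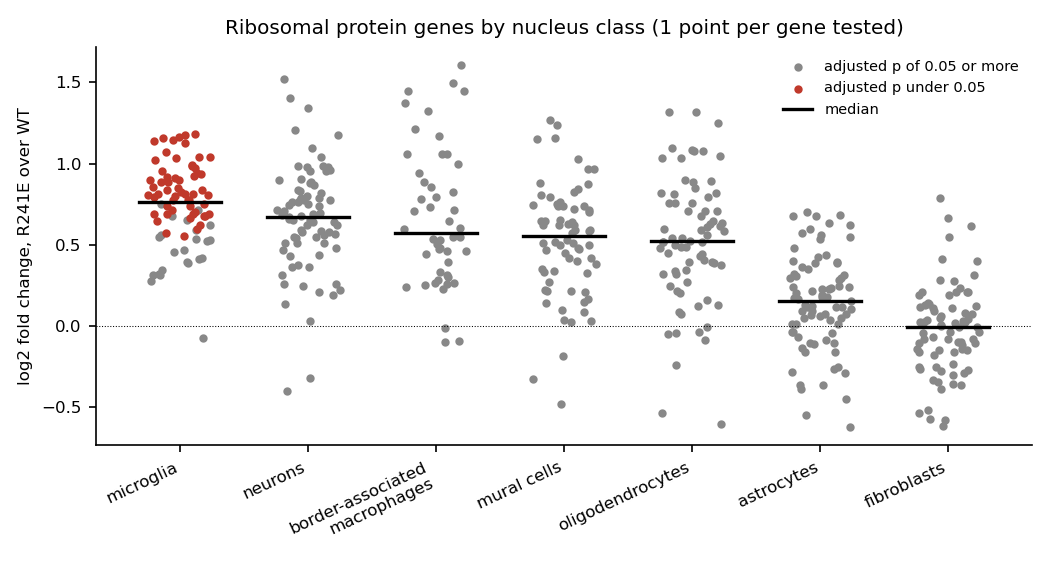
Log2 fold changes (R241E over WT, vertical axis) of the ribosomal protein genes tested in each of 7 classes, 1 point per gene, with the median as a black bar and genes with an adjusted p under 0.05 in red. Medians run from 0.76 in microglia and 0.67 in neurons to 0.15 in astrocytes and -0.01 in fibroblasts, and red points appear in microglia only.

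Whether the difference was larger in microglia was tested directly, by the interaction of class and genotype with each library as a block. Against astrocytes 1 of 80 genes was larger in microglia, where 0.51% of all genes were, and the median interaction over the 80 was 0.45 on the log2 scale. That gene was Rpl11 (1.36 ± 0.35, adjusted p = 0.0281), which in astrocytes had 38.9 and 52.0 CPM in R241E and 61.0, 46.2 and 56.5 in WT, from 12 to 36 UMIs a library. It was not called when any library other than WT replicate 3 was left out, and without WT replicate 3 the number called was 12 of 80. Beyond Rpl11, other genes of the group passed an unadjusted p of 0.05 against astrocytes, and all of these were larger in microglia. The next were Rplp1 (1.09 ± 0.33, adjusted p = 0.0947) and Rpl35a (1.23 ± 0.38, adjusted p = 0.104). Such genes were more numerous than in the 3 tests that follow, and the number over all genes is not reported here. Against oligodendrocytes 0 of 80 were called (0.492% of all genes, median 0.13, 1 unadjusted), against neurons 0 of 80 (0.0649%, median 0.06, 3 unadjusted) and against border-associated macrophages 0 of 79 (0.548%, median 0.13, 2 unadjusted). Over all genes tested, 905 of 12592, 1077 of 13860 and 706 of 10763 passed an unadjusted p of 0.05 in these 3 tests. With DESeq2 size factors the counts of called genes of the group were the same. In simulated counts the test against neurons recovered 3% of 2-fold differences, so these data do not show whether the difference in microglia was larger than in neurons.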

How the data were processed

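The deposited matrices hold whole UMI counts for every gene in every nucleus. The authors made these counts from 3′ reads with Cell Ranger 7.0.0 on the build mm10, as the submitters' processing notes name them. Whether intronic reads were counted is not given in the sources used here. The genes and lists were chosen with earlier results of these data known. The limits on nuclei were a minimum of 200 genes and upper limits of 4500 genes, 10000 UMIs and a mitochondrial share of 5%. They were clustered without the ribosomal protein genes (scanpy 1.11.5, leidenalg 0.10.2, 3000 variable genes, 30 components, 20 neighbours, resolution 1). A cluster took a class name when its markers had a mean log2 fold over the other nuclei of at least 2, led the next class by at least 1, and at least 3 were detected; the lead was set after the clusters were seen. The upper limits were the treatment of doublets in the main fit, since Scrublet marked 42 nuclei (0.442%), too few to be used. In an alternative setting 156 nuclei with top Scrublet scores were left out.

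UMIs were summed per library and class and tested with edgeR 4.0.16 (R 4.3.3, TMM scaling, quasi-likelihood, Benjamini-Hochberg over all genes tested). DESeq2 1.42.0, limma-voom (limma 3.58.1) and the settings given in the closing section were alternatives. On simulated counts of microglia with 200 genes changed 2-fold, the test recovered 71.5% and made 13 false calls. Named genes were those with most UMIs, smallest adjusted p, largest fold and largest p, the stalk and 5S genes, Rpsa, Rps27a and the paralogs with their parents. Some genes that this rule or the lists name are not reported here. In other classes the gene with the smallest p was named after its values were seen. All columns were mapped to a sample. With each library from 1 mouse, p-values rest on the spread between 2 and 3 mice.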

Additional observations from a re-analysis of the deposited data

Results flagged for a closer look

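The difference between R241E and WT in Rpl11, a large-subunit protein of the 5S particle, was larger in microglia than in astrocytes by 1.36 on the log2 scale (SE 0.35, edgeR quasi-likelihood interaction test, adjusted p = 0.0281). It was picked out because the difference between the 2 classes passed its own test. In astrocytes the gene rests on 12 to 36 UMIs a library. Groups of 2 and 3 libraries are too small to be screened for a library that stands apart.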

How the results depend on the processing

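The number of ribosomal protein genes called higher in microglia (57) was between 46 and 68 with other scalings, DESeq2, limma-voom, no filter on low counts, thinned nuclei, other limits and other clusters. It was 0 with the mitochondrial share as a covariate and 14 in nuclei with no mitochondrial UMI, and from 20 (without R241E replicate 2) to 74 (without WT replicate 3) with 1 library left out. In border-associated macrophages 2 were called without the filter and 0 to 1 with 1 library left out, in neurons 3 without the filter, in oligodendrocytes 0 to 1 with 1 library left out, and in the interaction with astrocytes 0 to 12 (12 without WT replicate 3). The difference in share in neurons was 0.174 percentage points, and 0.325 in thinned nuclei. With the replicate block 77 were called in microglia, 2 in border-associated macrophages, 6 in neurons and 7 in oligodendrocytes. Where the text gives no count over all genes, such counts do not separate a change of the group from more calls of every kind. The groups share only 2 replicate numbers, whose deviations correlated at 0.0971 and -0.0142. With only 2 R241E libraries, their deviations from the group mean mirror each other. These correlations therefore cannot show whether the numbers pair the mice. With the mitochondrial covariate the log2 fold change turned to -0.37 for Rpl6, -0.17 for Rps29, -0.24 for Rpl41, -0.67 for Rps27l, -0.51 for Rpl14, -0.63 for Rpl4, -0.23 for Rplp0, -0.24 for Rplp1, -0.23 for Rpsa, -0.21 for Rps27a, -0.10 for Rpl22l1, -0.27 for Rpl39 and -0.31 for Rps27, and that of Rpl5 to -0.037 in nuclei with no mitochondrial UMI. The causes were not tested. Of the settings tried on single genes, 430 kept direction and side of the threshold, 44 lost the call and 20 gained it. Fits on nuclei with no mitochondrial UMI could not be made in border-associated macrophages and fibroblasts, which had too few. The recovery of simulated 2-fold changes, from 71.5% in microglia to 0.5% in neurons, limits what a count of 0 shows in the other classes.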
